A study of Mus musculus with 9 samples.

Results

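The genes described here are 10 mouse genes of intracellular innate sensing: the peptidoglycan receptors Nod1 and Nod2 with their kinase Ripk2, the RNA helicases Ifih1 (MDA5) and Dhx58 (LGP2) with their adaptor Mavs, the nucleic acid sensors Zbp1 and Aim2, and the kinases Tbk1 and Ikbke. They were chosen by gene symbol, with earlier results of these data known, and make up 10 of the 21959 genes in the deposited table. Each symbol matched 1 row, and all 10 passed the filter on low counts, so no member is missing from what follows. RNA was sequenced from DC2.4, an immortalised mouse line with dendritic cell character, in 3 groups of 3 libraries named PBSDC, OMVSSDC and ZJDC in the titles. The study's stated interest is the immune stimulation of DC2.4 by engineered extracellular vesicles called EMV@SS. The labels give no agent, dose, time or passage for any group, and all groups share the 1 cell line. PBS usually stands for phosphate-buffered saline, so PBSDC was taken as the reference. Separate cultures are not mentioned for the replicates. The p-values thus cover the spread between these libraries alone, which may be technical.

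NOD1 and NOD2 are cytosolic receptors that bind fragments of bacterial peptidoglycan and recruit the kinase RIPK2, which leads to NF-kB activation. MDA5 binds long double-stranded RNA and signals through MAVS on mitochondria, while LGP2 lacks the signalling domain and modulates the other helicases. ZBP1 binds Z-form nucleic acids and can trigger necroptosis, AIM2 binds double-stranded DNA and assembles an inflammasome, and TBK1 and its relative IKK-epsilon (Ikbke) phosphorylate IRF3 and IRF7, the factors that switch on type I interferon genes. Several of these sensors are themselves interferon-stimulated genes in dendritic cells and macrophages.

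Library totals ranged from 12784931 to 18388959 counts, and a count of 0 in a library allows up to 0.163 to 0.235 CPM (CPM, a gene's counts relative to the library's size; counting error only). OMVSSDC replicate 3 stood apart from its own group. A chi-square of the counts over genes, divided by its degrees of freedom, was 1.88 between replicates 1 and 2. It was 61.5 and 64.7 between each of them and replicate 3, and 7.63 to 10.7 between replicate 3 and the ZJDC libraries. Pairs within PBSDC gave 2.80 to 3.92, and pairs within ZJDC 2.54 to 8.95. OMVSSDC results were therefore also computed without replicate 3, and with replicate 3 as the only OMVSSDC library (7 libraries in all, where the spread comes from PBSDC and ZJDC). Against PBSDC, these values are given where they change the call or the direction, or move the value by over 1.5 times. Against ZJDC, they are given for the genes named below where the call or the direction changes. All 10 myeloid markers were detected in every group, with Ptprc at 725 to 957 CPM and Itgax, which encodes the dendritic cell integrin CD11c, at only 1.61 to 4.83 CPM. Lists of other cell types were low. The 10 heart and brain genes summed to 30.9 to 33.5 CPM in PBSDC, 16.9 to 21.9 CPM in ZJDC and 4.65 to 18.3 CPM in OMVSSDC, and the 6 fibroblast and endothelial genes to 22.6 to 25.6, 9.19 to 13.7 and 4.91 to 17.2 CPM. For both lists the highest OMVSSDC value was that of replicate 3, and replicates 1 and 2 lay near the lower end. The 6 epithelial, 6 lymphoid and 6 granulocyte and erythroid genes summed to at most 1.70, 1.23 and 8.97 CPM in any library, with Cd3e, Cd3g and Ncr1 at 0 throughout. Single genes weighed most on the first 2 sums. Tnnt2 had 17.4 to 19.9 CPM in PBSDC and 5.94 to 7.12 CPM in ZJDC, and Pecam1 14.3 to 14.8 and 3.60 to 4.68 CPM. Cdh5 was also lower in ZJDC, while Myh6, Actc1, Myl2 and Col1a1 overlapped between PBSDC and ZJDC. Whether these sums reflect other cells, and their part in the results below, was not tested.

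Promoter sequence from RefSeq (build GRCm38.p6) was held for 7 of the 10 genes, in 8 windows. Ripk2, Dhx58 and Zbp1 had no window and were not searched. The 250 bases before the annotated start were searched on both strands for the core of the interferon-stimulated response element, an NF-kB motif of the RelA type and the STAT motif TTCNNNGAA, which is its own reverse complement. These motifs occur in 2.98%, 1.41% and 7.02% of the 32851 promoter windows of the same table. Of the 8 member windows, 1 held a match: the second Nod1 start has the STAT motif as TTCCAGGAA, 193 to 185 bases before it. The windows shown are those of Nod1, the gene with the largest difference against PBSDC, Ifih1, a helicase gene that rose in both comparisons, and Mavs, the member that fell. They lie at chr6:54972613-54972862 and chr6:54971662-54971911 (Nod1, minus strand), chr2:62646256-62646505 (Ifih1, minus strand) and chr2:131233813-131234062 (Mavs, plus strand). Sequences run 5′ to 3′ along the gene, and capitals mark the motif match.
Nod1, first start: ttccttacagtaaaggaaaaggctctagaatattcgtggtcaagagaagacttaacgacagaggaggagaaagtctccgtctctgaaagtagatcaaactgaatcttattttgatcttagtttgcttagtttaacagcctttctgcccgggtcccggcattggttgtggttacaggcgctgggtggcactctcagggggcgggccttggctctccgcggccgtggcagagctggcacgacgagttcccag
Nod1, second start: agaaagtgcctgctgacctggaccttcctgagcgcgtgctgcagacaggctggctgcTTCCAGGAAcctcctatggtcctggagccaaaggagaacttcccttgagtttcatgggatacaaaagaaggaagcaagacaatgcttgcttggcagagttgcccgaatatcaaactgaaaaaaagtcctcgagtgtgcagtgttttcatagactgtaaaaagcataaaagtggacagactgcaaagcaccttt
Ifih1: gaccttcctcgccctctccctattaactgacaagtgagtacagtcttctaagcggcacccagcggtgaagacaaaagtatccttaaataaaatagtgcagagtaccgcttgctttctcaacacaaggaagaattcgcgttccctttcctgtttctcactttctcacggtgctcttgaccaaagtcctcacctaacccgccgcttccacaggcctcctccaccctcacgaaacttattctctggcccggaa
Mavs: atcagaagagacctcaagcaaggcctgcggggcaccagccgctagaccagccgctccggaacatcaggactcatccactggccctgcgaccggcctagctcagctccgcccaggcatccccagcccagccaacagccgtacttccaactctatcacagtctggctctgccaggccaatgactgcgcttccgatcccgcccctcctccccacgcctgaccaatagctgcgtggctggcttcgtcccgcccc
The Mavs window is the richest in G and C of these, at 65.2%, against 51.6% and 48% in the Nod1 windows, 50% in that of Ifih1 and a median of 52.4% over all windows. A missing match says only that those letters are not in this stretch.

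On the FPKM scale, which divides by gene length and allows levels of different genes to be set side by side, Ikbke was the most abundant member in every group and Nod1 the least. In PBSDC, Ikbke stood at 44.9 ± 1.76 FPKM (SD, n = 3, as for all values given with ±) and Nod1 at 0.748 ± 0.157 FPKM, a level above that of 14.4% of tested genes. Tbk1 at 35.8 ± 0.580 FPKM and Aim2 at 35.4 ± 3.24 FPKM followed Ikbke and overlapped each other. Mavs at 23.0 ± 0.269, Ripk2 at 18.1 ± 0.184, Zbp1 at 12.0 ± 1.54, Dhx58 at 11.4 ± 0.227, Ifih1 at 9.71 ± 0.356 and Nod2 at 5.36 ± 0.686 FPKM came next. Among those neighbours, Zbp1 and Dhx58 overlapped and the others did not. The order was different in OMVSSDC and ZJDC, where Mavs stood below Ripk2, Zbp1, Dhx58 and Ifih1. Its level there was 20.9 ± 0.361 FPKM in OMVSSDC and 19.3 ± 1.01 FPKM in ZJDC. Zbp1 reached 36.5 ± 1.86 and 28.3 ± 0.875 FPKM, Ifih1 25.3 ± 2.21 and 24.5 ± 0.312 FPKM, and Ikbke 86.6 ± 6.10 and 81.2 ± 2.71 FPKM. In OMVSSDC the ranges of neighbours overlapped for Tbk1 and Aim2, Aim2 and Zbp1, Zbp1 and Dhx58, and Dhx58 and Ifih1. In OMVSSDC replicate 3, Ifih1 at 27.9 FPKM stood above Dhx58 at 25.7 FPKM. Tbk1 lay above Zbp1 in every OMVSSDC library.

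**Figure D1:**
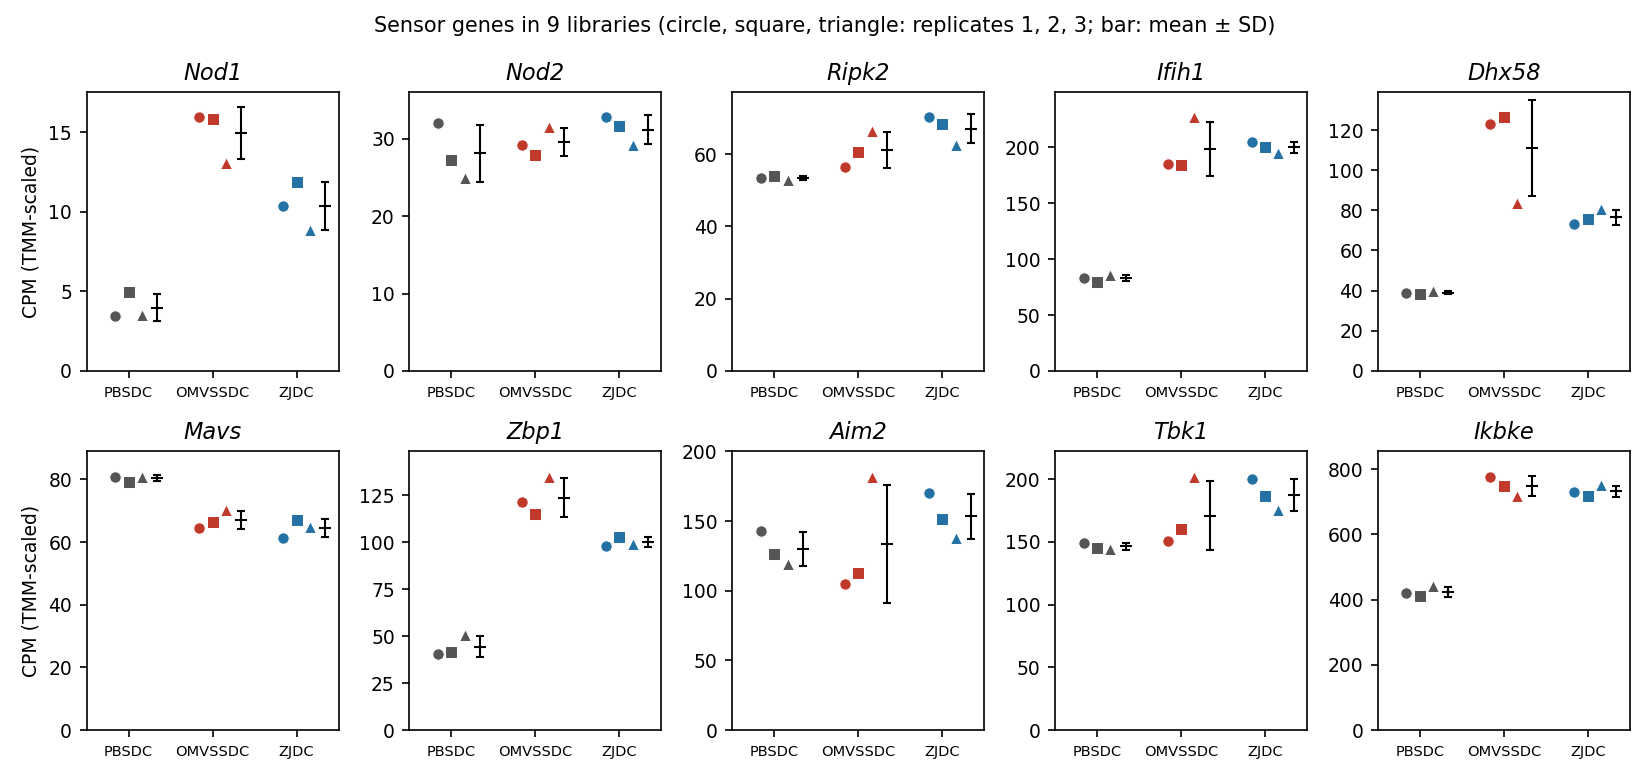
Level of each sensor gene in all 9 libraries, in CPM scaled by TMM on a linear axis from 0, with 1 panel per gene. Symbols are replicates 1 (circle), 2 (square) and 3 (triangle), and black bars are the group mean ± SD. Nod1, Ifih1, Dhx58, Zbp1 and Ikbke sit higher in OMVSSDC and ZJDC than in PBSDC, Mavs sits lower, and OMVSSDC replicate 3 stands apart from replicates 1 and 2 for Aim2, Dhx58 and Tbk1.

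Nod1 showed the largest difference among the 10 genes in both comparisons with PBSDC. The gene lies on chromosome 6, 54900934 to 54949597, minus strand (coordinates of the deposited table, of a build that its labels do not name and that is not GRCm38). It had 59, 72 and 48 counts in PBSDC, 221, 283 and 193 in OMVSSDC and 184, 152 and 165 in ZJDC. On the scale of TMM-scaled CPM, used for all CPM of genes below, this was 3.48, 4.94 and 3.51 CPM against 15.9, 15.8 and 13.1 CPM and 10.4, 11.9 and 8.86 CPM. The 3 groups did not overlap, with PBSDC lowest and OMVSSDC highest. Nod1 rose 3.76-fold in OMVSSDC (log2 fold change 1.91, SE 0.176, adjusted p = 7.50e-06) and 2.60-fold in ZJDC (1.38, SE 0.179, adjusted p = 0.000114). Both calls held in all 18 alternative settings, with log2 fold changes of 1.71 to 2.08 and 1.28 to 1.56.

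Nod2, the receptor for muramyl dipeptide and a relative of Nod1, gave no such difference. It lies on chromosome 8, 89373943 to 89415102, plus strand. Its levels were 32.1, 27.3 and 24.9 CPM in PBSDC, 29.2, 27.9 and 31.5 CPM in OMVSSDC and 32.8, 31.6 and 29.2 CPM in ZJDC. All 3 groups overlapped. The log2 fold changes were 0.07 for OMVSSDC (95% interval -0.17 to 0.31, adjusted p = 0.578) and 0.15 for ZJDC (-0.09 to 0.38, adjusted p = 0.259), so a rise of the size seen for Nod1 lies outside both intervals. The OMVSSDC value was 0.02 without replicate 3 (0.893) and 0.15 with it alone (0.290). Within a library the ratio of Nod1 to Nod2 in FPKM was 0.107 to 0.179 in PBSDC, 0.409 to 0.559 in OMVSSDC and 0.300 to 0.371 in ZJDC. These ranges did not overlap, and they do not depend on how libraries were scaled. Nod2 remained the more abundant of the pair in every library.

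Ripk2, the kinase that both receptors recruit, differed by small amounts. It lies on chromosome 4, 16122733 to 16163647, minus strand. Its levels were 53.4, 53.9 and 52.7 CPM in PBSDC, 56.5, 60.6 and 66.2 CPM in OMVSSDC and 70.2, 68.3 and 62.5 CPM in ZJDC. Both of the latter groups lay above PBSDC without overlap, and they overlapped each other. The rise in ZJDC was 1.26-fold (log2 fold change 0.33, SE 0.0770, adjusted p = 0.00468) and held in all 18 alternatives. The rise in OMVSSDC was 1.15-fold (0.20, SE 0.0772, adjusted p = 0.0462), and 15 of 18 alternatives ended that call, with adjusted p up to 0.120. Those 15 include leaving out any 1 library other than OMVSSDC replicate 1 (0.0561 to 0.120; 0.0684 without OMVSSDC replicate 3). The value was 0.31 (0.00288) with replicate 3 as the only OMVSSDC library.

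Ifih1, which encodes the double-stranded RNA sensor MDA5, rose to about the same mean level in both groups. It lies on chromosome 2, 62426142 to 62476599, minus strand. PBSDC libraries had 83.4, 79.8 and 85.7 CPM, OMVSSDC 185, 184 and 227 CPM, and ZJDC 205, 200.2 and 195 CPM. PBSDC lay below both other groups. OMVSSDC replicates 1 and 2 lay below every ZJDC library and replicate 3 above every one, so the similar means come from a split group. The change was 2.39-fold in OMVSSDC (log2 fold change 1.26, SE 0.0866, adjusted p = 1.01e-06) and 2.41-fold in ZJDC (1.27, SE 0.0866, adjusted p = 1.56e-06). Both calls held in all 18 alternatives.

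Dhx58, which encodes the related helicase LGP2, lies on chromosome 11, 100585710 to 100595097, minus strand. It had 38.7, 38.5 and 39.8 CPM in PBSDC, 123, 126 and 83.6 CPM in OMVSSDC and 73.0, 75.9 and 80.4 CPM in ZJDC. The groups did not overlap, but OMVSSDC replicate 3 lay much nearer to ZJDC than to its own group. Dhx58 rose 2.85-fold in OMVSSDC (log2 fold change 1.51, SE 0.138, adjusted p = 7.18e-06) and 1.96-fold in ZJDC (0.97, SE 0.138, adjusted p = 0.000205). The value for OMVSSDC was 1.68 without replicate 3 and 1.10 with replicate 3 alone, called in both. The FPKM ratio of Ifih1 to Dhx58 followed the same division: it was 0.601 and 0.585 in OMVSSDC replicates 1 and 2, 1.09 in replicate 3, 0.969 to 1.12 in ZJDC and 0.831 to 0.864 in PBSDC.

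Mavs, the mitochondrial adaptor through which MDA5 and RIG-I signal, moved the opposite way to the helicases. It lies on chromosome 2, 131075983 to 131089945, plus strand. Its levels were 80.9, 79.3 and 80.9 CPM in PBSDC, 64.4, 66.3 and 70.1 CPM in OMVSSDC and 61.4, 67.2 and 64.8 CPM in ZJDC. Every library of those groups lay below every PBSDC library. Mavs fell by 0.26 on the log2 scale in OMVSSDC (SE 0.0633, adjusted p = 0.00438) and by 0.32 in ZJDC (SE 0.0633, adjusted p = 0.00177). With library size alone in place of TMM, the median of all genes shifted by 0.13 in OMVSSDC against PBSDC, and Mavs stood at -0.14 there (adjusted p = 0.0695). The ratio of Ifih1 to Mavs in FPKM, free of library scaling, was 0.412 to 0.434 in PBSDC, 1.14 to 1.33 in OMVSSDC and 1.22 to 1.36 in ZJDC. It moved mostly with Ifih1, which rose 2.39-fold and 2.41-fold, so it says little about Mavs alone.

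Zbp1, the sensor of Z-form nucleic acids, lies on chromosome 2, 173048405 to 173060716, minus strand. It had 40.6, 41.8 and 50.8 CPM in PBSDC, 121, 115 and 135 CPM in OMVSSDC and 97.7, 103 and 99.1 CPM in ZJDC. The 3 groups did not overlap, in the order PBSDC, ZJDC, OMVSSDC. Zbp1 rose 2.79-fold in OMVSSDC (log2 fold change 1.48, SE 0.0962, adjusted p = 7.30e-07) and 2.25-fold in ZJDC (1.17, SE 0.0959, adjusted p = 5.15e-06), in all 18 alternatives each. OMVSSDC replicate 3 was the highest library here, and the value was 1.41 without it and 1.60 with it alone.

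Aim2, the inflammasome receptor for double-stranded DNA, was the member whose OMVSSDC libraries disagreed most. Its gene model on chromosome 1 runs from 173178445 to 173293606, plus strand, and overlaps Cadm3 on the minus strand, which had at most 3 counts in a library. Aim2 belongs to the PYHIN family, and how reads shared between relatives were assigned is not given. Levels were 143, 126 and 119 CPM in PBSDC, 105, 113 and 182 CPM in OMVSSDC and 170.1, 152 and 138 CPM in ZJDC. On this scale OMVSSDC replicates 1 and 2 were below every PBSDC library and replicate 3 was above every library of both other groups. By library total alone, OMVSSDC replicate 2 (120.4 CPM) lay above PBSDC replicate 3 (114.5 CPM). No difference passed: the log2 fold change was 0.04 for OMVSSDC (95% interval -0.37 to 0.45, adjusted p = 0.866) and 0.24 for ZJDC (-0.17 to 0.65, adjusted p = 0.290). The direction for OMVSSDC depended on replicate 3. Without it Aim2 was lower than in PBSDC (-0.25, adjusted p = 0.0262), and with it alone Aim2 was higher (0.48, adjusted p = 0.00357). For ZJDC the value hardly moved, but passed without OMVSSDC replicate 3 (0.24, adjusted p = 0.0191), in the 7 libraries (0.0233) and with only the 2 groups compared (0.0226).

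Tbk1 and Ikbke encode related kinases, of which Tbk1 is commonly regarded as constitutive and Ikbke as inducible in myeloid cells. Ikbke, on chromosome 1, 131182080 to 131207344, minus strand, had 419, 409.8 and 441 CPM in PBSDC, 777, 749 and 717 CPM in OMVSSDC and 729, 716 and 751 CPM in ZJDC. PBSDC lay far below the other groups, which overlapped. It rose 1.77-fold in OMVSSDC (log2 fold change 0.82, SE 0.0589, adjusted p = 1.27e-06) and 1.73-fold in ZJDC (0.79, SE 0.0589, adjusted p = 2.72e-06), in all 18 alternatives each. Tbk1, on chromosome 10, 121382360 to 121422692, minus strand, had 149.5, 145 and 145 CPM in PBSDC, 150.4, 160.3 and 202 CPM in OMVSSDC and 200.5, 187 and 175 CPM in ZJDC. OMVSSDC replicate 1 was barely above the highest PBSDC library, and replicate 3 was above all ZJDC libraries. Tbk1 rose 1.28-fold in ZJDC (0.36, SE 0.104, adjusted p = 0.0152), a call that ended without PBSDC replicate 2 (0.0541), PBSDC replicate 3 (0.0528) or ZJDC replicate 1 (0.0637). In OMVSSDC its log2 fold change was 0.22 (95% interval -0.01 to 0.46, adjusted p = 0.0862). That value was 0.08 without OMVSSDC replicate 3 (0.158), 0.30 without OMVSSDC replicate 1 (0.0295), 0.46 with replicate 3 alone (1.41e-06) and 0.35 with library size alone (0.00603). Within a library, the FPKM ratio of Ikbke to Tbk1 was 1.21 to 1.32 in PBSDC, 1.54 to 2.24 in OMVSSDC and 1.58 to 1.86 in ZJDC.

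In all, 6 of the 10 genes rose and 1 fell in OMVSSDC against PBSDC, where 63.6% of the 11568 tested genes passed, 33.4% higher and 30.2% lower. In ZJDC against PBSDC, 7 rose and 1 fell, beside 54.7% of tested genes, 27.6% higher and 27.1% lower. Genes more than 2-fold higher were rarer, 12.9% and 9.18% of those tested. They included 4 members in OMVSSDC (Nod1, Ifih1, Dhx58 and Zbp1) and 3 in ZJDC (Nod1, Ifih1 and Zbp1). Groups did not overlap for 7 members in the higher and 1 in the lower direction in each of these comparisons, against 33.9% and 31.8% of tested genes for OMVSSDC (65.7% in either direction) and 36.2% and 36.0% for ZJDC (72.2% in either direction). The median log2 fold change of the members was 0.52 and 0.57, beside 0.05 and 0.01 over all tested genes. The members were chosen with earlier results of these data known, so these counts and medians are no test of the list. Both comparisons use the same PBSDC libraries and are therefore not independent. The count of members that passed was 6 to 9 over the alternatives for OMVSSDC, the change being in Ripk2, Tbk1, Mavs and Aim2, and 7 to 9 for ZJDC.

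**Figure D2:**
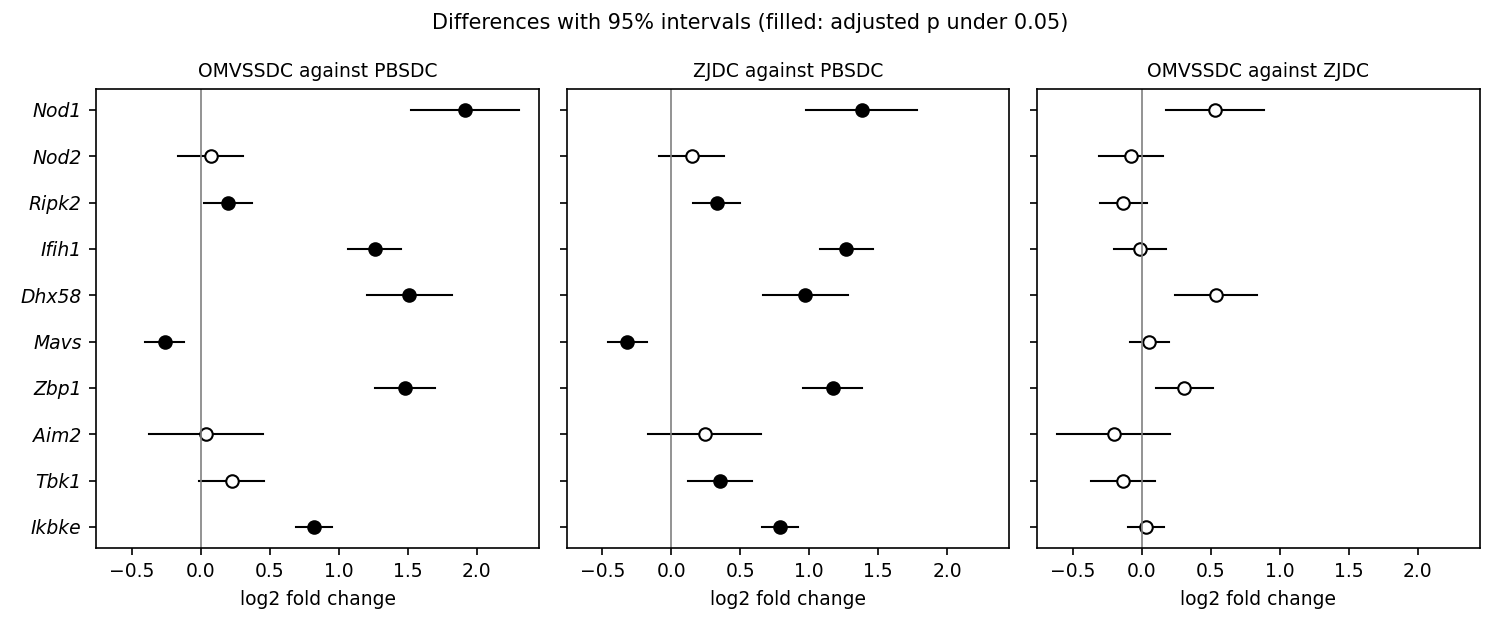
Log2 fold change of each sensor gene in the 3 comparisons, with its 95% interval. Filled points passed at an adjusted p under 0.05. Against PBSDC, 7 genes passed in OMVSSDC and 8 in ZJDC, and no point is filled in OMVSSDC against ZJDC.

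OMVSSDC was also compared directly with ZJDC. With edgeR 0 of 10 passed, beside 1.95% of tested genes, 0.856% higher and 1.10% lower, and 0.0778% more than 2-fold higher. At an unadjusted p under 0.05 there were 3, beside 31.8% of tested genes (17.2% higher in OMVSSDC). All 3 were higher in OMVSSDC: Dhx58 (log2 fold change 0.54, 95% interval 0.24 to 0.84, adjusted p = 0.0595), Nod1 (0.53, 0.18 to 0.89, adjusted p = 0.0806) and Zbp1 (0.31, 0.10 to 0.51, adjusted p = 0.0820). The same 3 were the members whose groups did not overlap, where 11.7% of tested genes were higher, 12.2% lower and 24.0% either without overlap. DESeq2 called these 3 (adjusted p = 0.00864, 0.0310 and 0.0472), and limma-voom called 0, beside 16.1% and 2.79% of the genes each tested. Among the others the intervals were -0.10 to 0.16 for Ikbke, -0.09 to 0.20 for Mavs and -0.20 to 0.18 for Ifih1.

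OMVSSDC replicate 3 decided much of that comparison. For 0 of the 10 genes did it lie between replicates 1 and 2, and it was 1.67 times their mean for Aim2, 1.30 times for Tbk1, 1.23 times for Ifih1 and 0.670 times for Dhx58. Without it, 7 members passed against ZJDC, beside 55.6% of the genes tested in that setting, with Nod1 (0.63), Dhx58 (0.70) and Zbp1 (0.24) higher and Aim2 (-0.49), Tbk1 (-0.27), Ripk2 (-0.19) and Ifih1 (-0.12) lower. With replicate 3 as the only OMVSSDC library, 1 passed, beside 2.97% of tested genes: Zbp1 (0.42, adjusted p = 0.00525). Dhx58 was at 0.12 and Nod1 at 0.34 there. Whether replicate 3 or replicates 1 and 2 represent the group cannot be told apart with these labels.

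**Figure D3:**
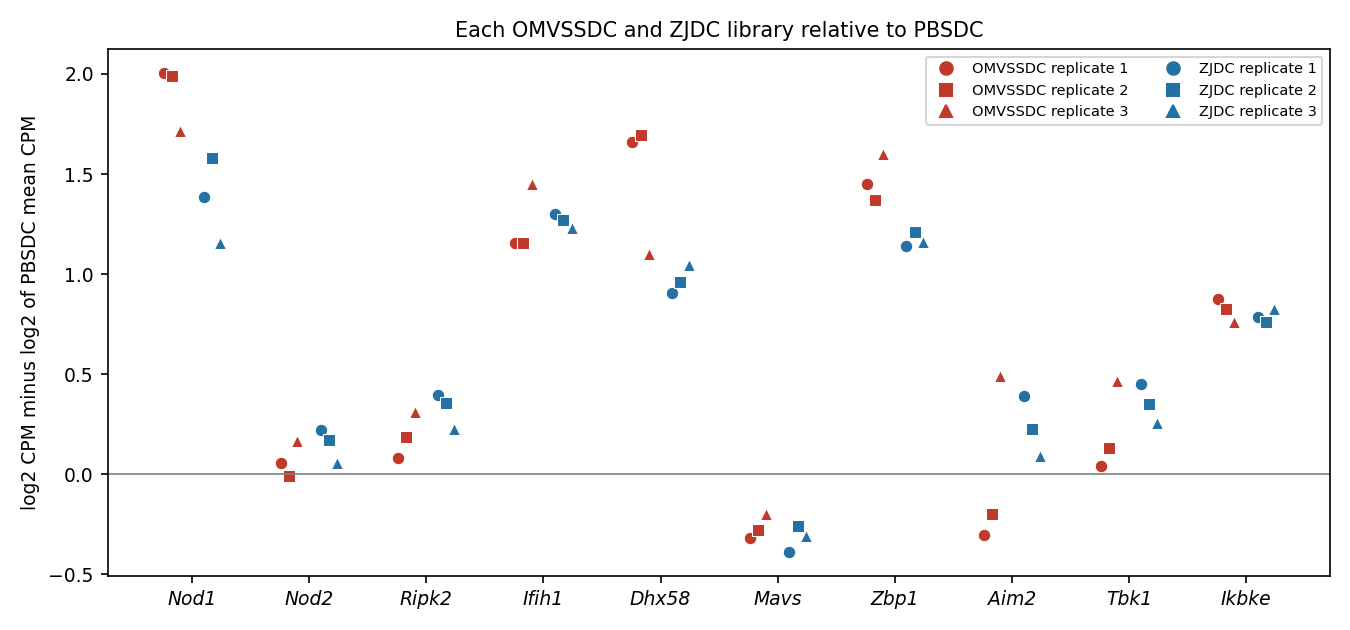
Log2 CPM of each OMVSSDC (red) and ZJDC (blue) library minus log2 of the PBSDC mean CPM, by gene. Symbols are replicates 1 (circle), 2 (square) and 3 (triangle), and the grey line is the PBSDC mean. The red triangle lies away from the red circle and square for Dhx58, Ifih1, Aim2 and Tbk1.

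Around these sensors, 62 further genes of the same pathways were listed, of which 57 were tested. In OMVSSDC against PBSDC, 23 rose and 11 fell (median log2 fold change 0.21), and in ZJDC against PBSDC 19 rose and 13 fell (0.17). Over all tested genes 63.6% passed in the former (33.4% higher, 30.2% lower) and 54.7% in the latter (27.6% and 27.1%). The totals that passed are thus near the background. These shares are also the background for the counts per list against PBSDC below. In OMVSSDC against ZJDC, 1 passed, beside 1.95% of all tested genes. Without OMVSSDC replicate 3 that comparison gave 5 of 5 genes of peptidoglycan entry, 12 of 13 of the NOD relay, 6 of 8 around RIG-I, 10 of 14 of the MAVS relay, 5 of 10 of DNA sensing and 5 of 8 inflammasome and necroptosis partners. In that setting 55.6% of all tested genes passed. The lists hold only 5 to 14 tested genes, and no count was tested against that share. Among named pathway genes, those newly passing against ZJDC in that setting were higher for Slc46a3 (0.46), Birc2 (0.41), Ripk3 (0.29), Trim25 (0.24), Lyz2 (0.23) and Irf3 (0.22). Lower were Cgas (-0.64), Ddx58 (-0.29), Xiap (-0.19), Ifi203 (-0.15) and Birc3 (-0.12). With replicate 3 as the only OMVSSDC library, Ifi203 stood at 0.41. Slc15a2, Slc46a2, Pglyrp1 and Rnf125 had at most 4 counts in any library. Trex1, a DNA exonuclease, was listed at 0 counts in all 9 libraries, and how reads overlapping several genes were counted is not given.

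Of 5 tested genes that make or carry peptidoglycan fragments, 3 rose and 1 fell in OMVSSDC, and 3 rose and 2 fell in ZJDC. Slc46a3, a lysosomal solute carrier, rose from 2.28 CPM in PBSDC to 15.6 CPM in OMVSSDC (log2 fold change 2.78, SE 0.139, adjusted p = 1.36e-07) and 11.7 CPM in ZJDC (2.36, SE 0.140, adjusted p = 6.50e-07). Lyz2, the lysozyme of myeloid cells that cuts peptidoglycan, fell from 846 CPM to 302 CPM (-1.48) and 273 CPM (-1.63).

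Of 13 genes that relay the NOD signal, 4 rose and 2 fell in OMVSSDC (11 passed in the 7 libraries), and 5 rose and 4 fell in ZJDC. Birc2 and Birc3, which encode the ubiquitin ligases cIAP1 and cIAP2, rose by 1.08 and 0.96 in OMVSSDC and by 0.77 and 1.03 in ZJDC (log2). Xiap, the ligase that ubiquitinates RIPK2, had 0.14 in OMVSSDC (adjusted p = 0.136), with 0.05 without replicate 3 (0.349), 0.30 with it alone (0.000375) and 0.27 with library size alone (0.00416). It rose by 0.24 in ZJDC (0.0226), a call that ended without PBSDC replicate 1, 2 or 3 or ZJDC replicate 1 or 2 (0.0593 to 0.0818).

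All 8 tested genes of RIG-I and its helpers passed in OMVSSDC, with 5 higher and 3 lower, and 4 rose and 2 fell in ZJDC. Ddx58, which encodes RIG-I, the third helicase of the family, rose from 151 CPM to 225 CPM in OMVSSDC (log2 fold change 0.58, SE 0.116, adjusted p = 0.00155) and 244 CPM in ZJDC (0.70, SE 0.116, adjusted p = 0.000591). Trim25, a ubiquitin ligase that acts on RIG-I, rose by 0.90 and 0.71, and the stress granule protein gene G3bp1 fell by 0.64 and 0.65.

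Of 14 tested genes of the MAVS relay and the TBK1 adaptors, 4 rose and 3 fell in OMVSSDC and 3 rose and 2 fell in ZJDC. The ZJDC total of 5 was 11 without OMVSSDC replicate 3 and in the 7 libraries, 10 with only the 2 groups compared, and 3 without PBSDC replicate 2 or ZJDC replicate 2. Irf7, the inducible interferon regulatory factor that TBK1 and IKK-epsilon phosphorylate, rose from 156 CPM to 640 CPM in OMVSSDC (log2 fold change 2.04, SE 0.0685, adjusted p = 1.65e-08) and 444 CPM in ZJDC (1.51, SE 0.0675, adjusted p = 1.44e-07). Irf3, its constitutive relative, had 0.30 in OMVSSDC (adjusted p = 0.0770), with 0.45 without replicate 3 (1.99e-05), -0.08 with it alone (0.548) and 0.43 with library size alone (0.0283). In ZJDC it had 0.23 (0.179), and passed without OMVSSDC replicate 3 (0.00859), in the 7 libraries (0.0117) and with only the 2 groups compared (0.0100). Irf7 was the 1 pathway gene of 57 that passed in OMVSSDC against ZJDC (0.53, adjusted p = 0.0127). That call ended in 7 of 18 alternatives: without OMVSSDC replicate 1 or 2 (0.0633 and 0.0763), without ZJDC replicate 1, 2 or 3 (0.106, 0.139 and 0.0806), with the replicate number as a block (0.116) and with only the 2 groups compared (0.0878).

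Of 10 tested genes of DNA sensing, 3 rose and 2 fell in OMVSSDC, and 1 rose and 3 fell in ZJDC. The OMVSSDC total of 5 was 3 without PBSDC replicate 2 and 8 in the 7 libraries. The ZJDC total of 4 was 2 without PBSDC replicate 2 or 3, and 7 without OMVSSDC replicate 3, in the 7 libraries or with only the 2 groups compared. Cgas, the enzyme that makes the second messenger cGAMP on DNA, fell from 145 CPM to 80.8 CPM in OMVSSDC (-0.84, adjusted p = 0.000534), with -1.06 without replicate 3 and -0.49 with it alone. In ZJDC it fell to 108 CPM (-0.42, adjusted p = 0.0303), a call that ended without PBSDC replicate 1, 2 or 3 or ZJDC replicate 2 or 3 (0.0517 to 0.107) and with the replicate block (0.0501). Sting1, the receptor for cGAMP, fell by 0.54 and 0.41 (log2). Ifi203, a PYHIN relative of Aim2, rose by 1.03 and 0.96.

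Of 8 partners of inflammasomes and necroptosis, 4 rose and 1 fell in OMVSSDC and 3 rose and 1 fell in ZJDC. The OMVSSDC total of 5 was 3 without any 1 PBSDC library or with only the 2 groups compared. The ZJDC total of 4 was 7 without OMVSSDC replicate 3, in the 7 libraries or with only the 2 groups compared. Casp1, the protease that inflammasomes activate, rose by 0.76 and 0.74 (log2), and its substrate gene Il18 by 0.90 and 0.63. Pycard, the adaptor ASC that links AIM2 to caspase-1, was low at 6.09 CPM in PBSDC, 5.03 CPM in OMVSSDC and 4.30 CPM in ZJDC (-0.27, adjusted p = 0.310, and -0.50, adjusted p = 0.0863). Its OMVSSDC value was -0.10 without replicate 3 (0.646) and -0.70 with it alone (0.0300), and in ZJDC it passed without OMVSSDC replicate 3 (0.0159), in the 7 libraries (0.0193) and with only the 2 groups compared (0.0196). Ripk3, the kinase that ZBP1 engages in necroptosis, had -0.18 in OMVSSDC (adjusted p = 0.199), with -0.04 without replicate 3 (0.577) and -0.50 with it alone (4.87e-05). It fell by 0.34 in ZJDC (0.0297). That Ripk3 call ended without PBSDC replicate 2 or 3 or ZJDC replicate 1, 2 or 3 (0.0531 to 0.0916), with library size alone (0.104) and with the replicate block (0.0507).

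**Figure D4:**
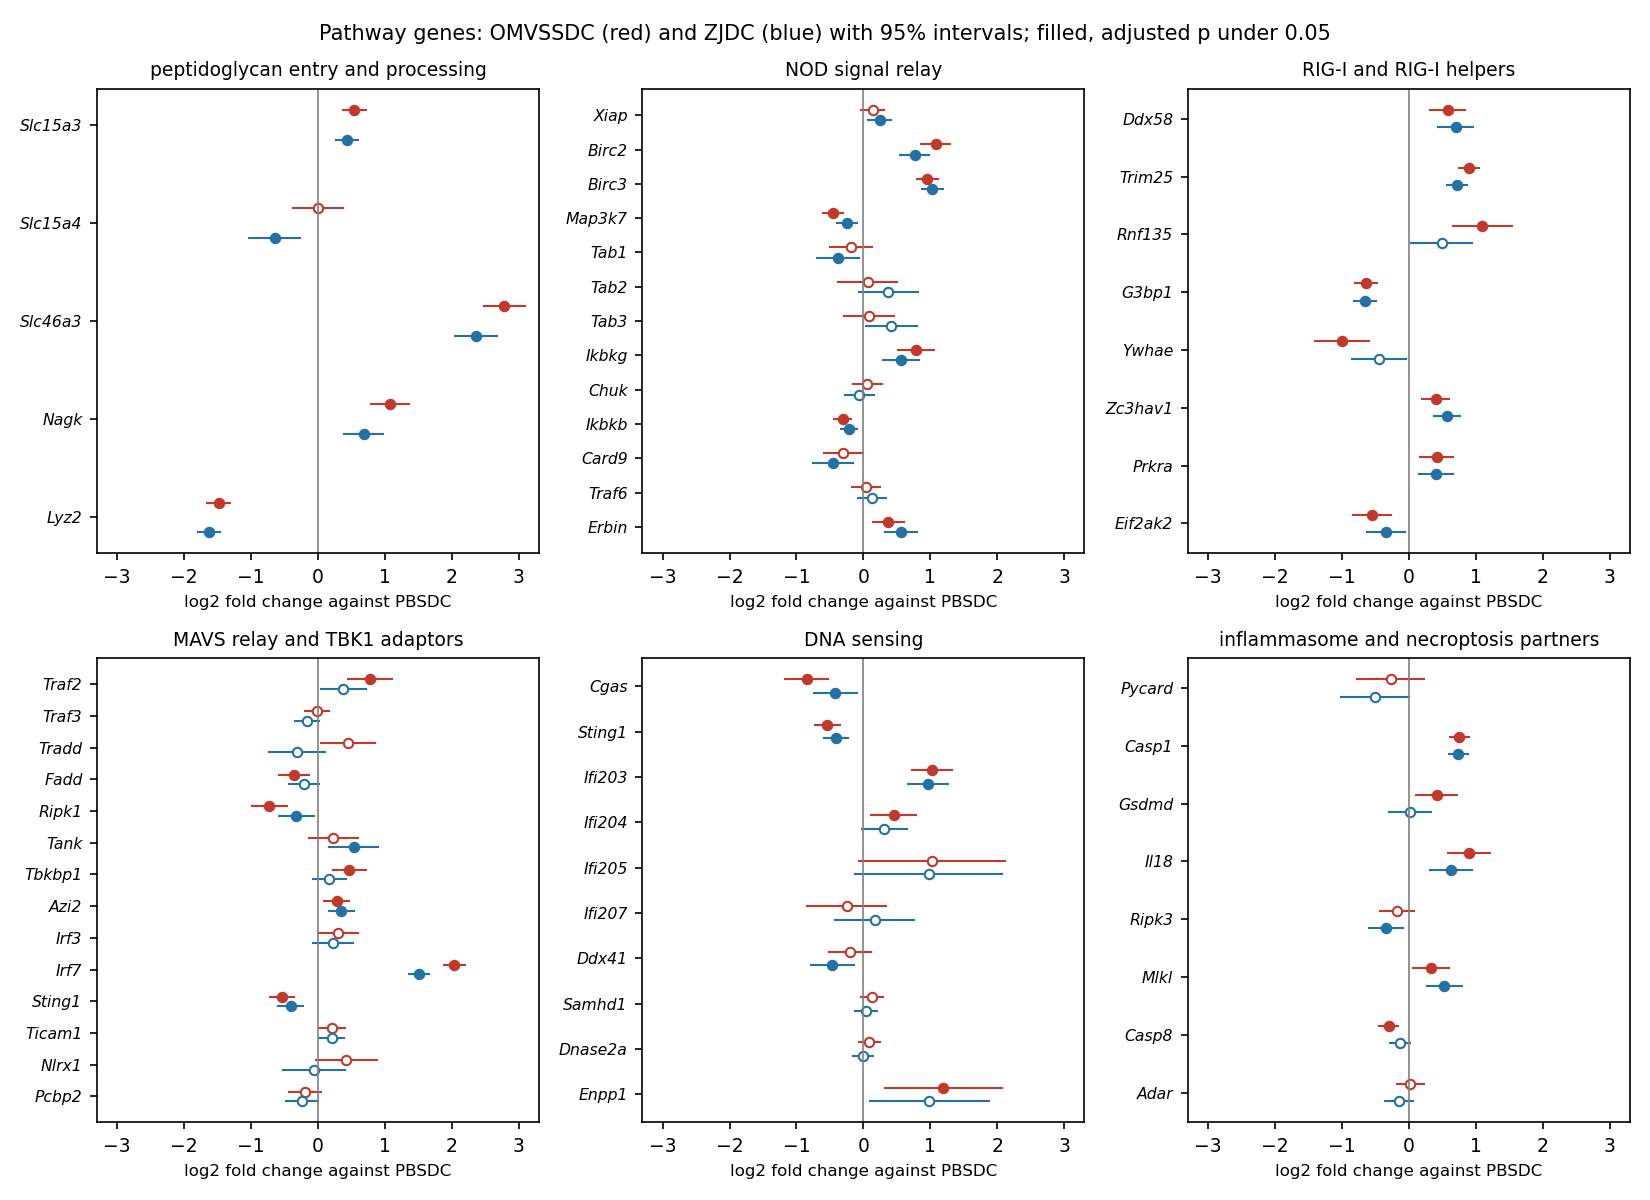
Log2 fold change against PBSDC of the tested pathway genes, by list, for OMVSSDC (red) and ZJDC (blue), with 95% intervals. Filled points passed at an adjusted p under 0.05. Slc46a3 and Irf7 lie farthest to the right and Lyz2 farthest to the left in both comparisons.

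By the Gene Ontology terms in the deposited table, 9 of the 10 members carry the term innate immune response, which 2.66% of tested genes carry, and Ikbke does not. The members were chosen as innate sensors, so shares of such terms follow from that choice. The term defense response to virus is carried by 6 members (Aim2, Dhx58, Ifih1, Mavs, Tbk1 and Zbp1) and 1.39% of tested genes. Of these 6, Ifih1, Dhx58 and Zbp1 rose in both comparisons with PBSDC, Mavs fell in both, Tbk1 rose in ZJDC, and Aim2 passed in neither. Positive regulation of xenophagy, the removal of bacteria by autophagy, is carried by 4 members (Nod1, Nod2, Ripk2 and Tbk1) and by 8 tested genes in all.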

How the data were processed

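RNA from 9 DC2.4 libraries was read by sequencing, and group and replicate number were taken from the titles. Per the submitters' processing notes, fastp 0.22.0, HISAT2 2.1.0 and HTSeq 0.9.1 were used. No label names the build or gene annotation (not given in the sources used here), and the table's coordinates are not those of GRCm38. The deposited values are whole-number read counts, not normalized by the authors, and FPKM, which the authors derived from them: each FPKM equalled the count divided by listed gene length and library total.

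The test was edgeR 4.0.16 in R 4.3.3. After filterByExpr (minimum count 10, minimum total 15) 11568 of 21959 genes remained. They were scaled by TMM and fitted to all 9 libraries with a robust quasi-likelihood model of group (6 residual degrees of freedom). The 3 contrasts were tested with edgeR's quasi-likelihood F-test (two-sided), with Benjamini-Hochberg adjustment across the tested genes and 0.05 as the threshold for passing. SEs were obtained from the log2 fold change and F (|log2 fold change|/√F). CPM are TMM-scaled. CPM of marker genes use the library total alone. FPKM were used only to set levels of genes side by side, without a test. The pipeline was tested on simulated data whose spread came from PBSDC and ZJDC, so that test does not cover the spread within OMVSSDC.

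All 10 members are named. From each of 6 lists of pathway genes, the 2 tested genes with the smallest adjusted p against PBSDC and a mean of at least 1 CPM are named, plus the counterparts Ddx58 (RIG-I), Cgas, Sting1, Pycard, Xiap, Ripk3 and Irf3. Members and lists were chosen with earlier results of these data known. Alternatives were RLE scaling, library size alone, no filter, a stricter filter (1 CPM in 3 libraries), DESeq2 1.42.0, limma-voom (limma 3.58.1), a replicate block, only the 2 groups compared, each library left out in turn, and OMVSSDC replicates 1 and 2 left out together.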

Additional observations from a re-analysis of the deposited data

How the results depend on the processing

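Of 540 log2 fold changes of the members under 18 alternatives in 3 comparisons, 489 kept direction and side of the threshold, 19 fell below it, 18 passed it newly and 14 changed sign. None of the values that changed sign had passed as reported. With 1 library left out in turn, Nod2 ranged from -0.012 to 0.18 and Aim2 from -0.25 to 0.18 in OMVSSDC against PBSDC, where limma-voom gave -0.0038 for Aim2 and leaving out PBSDC replicate 3 gave -0.021. In OMVSSDC against ZJDC, Ifih1 ranged from -0.12 to 0.040 and Ikbke from -0.00070 to 0.057. The 7 libraries gave 0.0086 for Nod2, 0.17 for Ifih1, 0.24 for Aim2, 0.10 for Tbk1 and -0.040 for Ikbke there, and library size alone 0.051 for Ifih1.

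Among 918 log2 fold changes of named pathway genes, 850 kept direction and side, 25 fell below the threshold, 26 passed it newly and 17 changed sign. In OMVSSDC against ZJDC the 7 libraries gave -0.035 for Lyz2, 0.0055 for Birc3, 0.16 for Ddx58, -0.21 for Pycard, 0.051 for Xiap, -0.17 for Ripk3, -0.32 for Irf3 and -0.15 for G3bp1, and in OMVSSDC against PBSDC -0.084 for Irf3. G3bp1 stood at -0.00082 with RLE scaling, -0.0012 with the stricter filter and -0.00077 with DESeq2. With 1 library left out, G3bp1 ranged from -0.043 to 0.088, Irf3 from -0.041 to 0.22, Ifi203 from -0.15 to 0.17 and Casp1 from -0.022 to 0.069 in OMVSSDC against ZJDC.

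In OMVSSDC against ZJDC 226 genes passed. The number was 1643 with DESeq2, 0 with the replicate block, 355 in the 7 libraries, 0 with only the 2 groups compared and 0 to 6539 with 1 library left out. It was 0 without any 1 ZJDC library and 6539 without OMVSSDC replicate 3. The members that passed there numbered 3 with DESeq2, 1 in the 7 libraries and 0 to 7 with 1 library left out, the 7 without OMVSSDC replicate 3. The cause was not tested. Against PBSDC, counts over all genes and over the members stayed within 1.5 times of those reported. Same-numbered libraries did not deviate together (correlations of deviations from group means -0.39 to 0.089). This shows no pairing by number but cannot exclude one, because replicate 3 dominates the deviations within OMVSSDC. With the replicate number as a block, 6867 genes passed for OMVSSDC and 5777 for ZJDC against PBSDC, with 6 and 8 members. Counting error weighs most on Nod1, with 48 to 72 counts in PBSDC.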

Other observations

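Further pathway genes, chosen after their values were seen, give more of the handling of peptidoglycan fragments. Nagk, the kinase of N-acetylglucosamine that also phosphorylates muramyl dipeptide, rose from 25.0 CPM in PBSDC to 52.7 CPM in OMVSSDC (log2 fold change 1.08, SE 0.130, adjusted p = 5.17e-05) and 40.03 CPM in ZJDC (0.68, SE 0.131, adjusted p = 0.00146). Slc15a3, an endolysosomal transporter of peptides, was abundant at 782 CPM in PBSDC and rose to 1138 CPM (0.54, adjusted p = 0.000131) and 1054 CPM (0.43, adjusted p = 0.000783). Both calls held for OMVSSDC without replicate 3 (1.21 for Nagk and 0.61 for Slc15a3) and with it alone (0.74 and 0.40). Against ZJDC, Nagk had 0.39 with all libraries (adjusted p = 0.0899), 0.53 without replicate 3 (1.46e-06) and 0.055 with it alone. Slc15a3 had 0.11 (0.318), 0.17 (0.00152) and -0.040 in the same settings. Slc15a4, a relative of Slc15a3, fell from 35.1 CPM in PBSDC to 22.4 CPM in ZJDC (-0.65, adjusted p = 0.00901). In OMVSSDC its libraries were split. By library total alone, replicates 1 and 2 had 38.9 and 46.0 CPM, above PBSDC at 30.6 to 36.2 CPM. Replicate 3 had 25.2 CPM, below PBSDC and nearer to ZJDC at 20.1 to 24.0 CPM. With the TMM factors (1.06 for OMVSSDC replicate 1, 0.959 for PBSDC replicate 3), OMVSSDC replicate 1 falls within the PBSDC range. The log2 fold change of Slc15a4 against PBSDC was -0.0048 with all libraries (adjusted p = 0.982), 0.19 without replicate 3 (0.0576) and -0.49 with it alone (0.00111). Against ZJDC it was 0.65 (0.0695), 0.84 without replicate 3 (1.42e-08) and 0.15 with it alone (0.616).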
